A study of Bos taurus with 16 samples.

Results

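The genes of this report build the MHC class I peptide presentation route in cattle. They are the light chain B2M, the peptide transporter subunits TAP1 and TAP2, the loading factor TAPBP, and the immunoproteasome subunits PSMB8, PSMB9 and PSMB10. The members were found as array probes that carry these symbols as gene name or in brackets in the probe description, together with any probe named BOLA or with a name that starts with BOLA-N. This rule found 7 probes, 1 for each of the 7 genes, of 21475 probes with 20602 unique gene names on the array. It found 0 probes named BOLA or BOLA-N in the scanner files. In the RefSeq genes of ARS-UCD2.0, those names belonged to 2 further probes, listed on the array as MGC134453 (BOLA) and LOC510417 (BOLA-NC1). Together with JSP.1, another class I heavy chain gene, they are described beside the 7 members as 3 heavy chain genes, chosen from their names after the files were seen.

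The cells were labelled CD14+ and came from 4 pregnant cows, each of which gave endometrium and blood at an abattoir, at days 164, 239, 242 and 248 of pregnancy for animals 1 to 4. Both cell types were obtained by flow cytometric sorting for CD14, from enzymatically dispersed endometrial cells and from blood mononuclear cells. RNA of both tissues of an animal was amplified, and the labeled product was hybridized to the same 2-colour Agilent array, and each animal was measured on 2 arrays as technical replicates. The blood cells of the same animals are the comparison group, and cells of non-pregnant cows were not analysed here.

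MHC class I molecules display peptides from the inside of a cell to CD8+ T cells. The proteasome cuts proteins into peptides, and under interferon the subunits PSMB8, PSMB9 and PSMB10 replace the constitutive catalytic subunits. TAP1 and TAP2 pump the peptides into the endoplasmic reticulum, where TAPBP (tapasin) holds the empty heavy chain with its B2M light chain next to the transporter until a peptide binds. Class I expression at the border between mother and conceptus has long been studied, since paternal class I molecules can be recognized by the mother's immune system.

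Each gene's identity rests on a single 60-base probe. A stretch of 30 of these bases is shown for each, 5′ to 3′, to show which sequence stands for the gene. Capitals mark the polyadenylation hexamer AATAAA, which lies near the end of many transcripts.
TAP1: cttgatatttatAATAAAattggtgttttg
PSMB9: cttctttattttgtAATAAActttctggaa
PSMB10: ggaacaaggaggAATAAAcccagaaaacac
B2M: tgacttctcaatgtcagtgggatccagaac
TAP2: gtctgatattttggggaccactaggatatg
TAPBP: aacagtttaggattgctatgaaaatagtct
PSMB8: cccagagacggagaaccagcggccactgga
The hexamer was found in 3 of the 7 member probes on the strand shown, against 11.8% of all 21475 probes, and on the other strand in 1 member probe against 3.88% of all probes. No member probe shared a run of 20 bases with any other probe on the array. In the ARS-UCD2.0 gene order TAP2, PSMB8, TAP1 and PSMB9 lie in this order within the class II region, between BOLA-DOB and BOLA-DMB. LOC618733 and LOC132343596 lie between TAP2 and PSMB8, and PSMB8, TAP1 and PSMB9 are direct neighbours.

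The defining markers divided the animals before any tissue was compared. Levels are log2 normalized intensities, the mean of the 2 arrays of an animal. CD14, the antigen of the sort, was at 14.24 in blood cells of animal 1 but at 6.30, 7.63 and 6.69 in animals 2, 3 and 4. In endometrial cells CD14 was at 12.17 in animal 1 and at 6.41, 8.14 and 6.82 in the others. Only the cells of animal 1 were therefore high in CD14 RNA, in both tissues. CD68, a lysosomal protein of macrophages, was also highest in animal 1, at 10.97 in blood and 12.93 in endometrium, against 6.95 to 7.66 and 6.83 to 9.94 in the other animals. CSF1R, the receptor for a macrophage growth factor, was highest in animal 1 in both tissues. It was at 6.64 to 8.13 in blood of the others, and at 14.40, 9.15, 11.27 and 10.95 in endometrial cells of animals 1 to 4. Endometrial cells of animals 3 and 4 were thus between the extremes for this gene. CD3E, a chain of the T cell receptor complex, ran the other way. It was at 7.19 in blood cells of animal 1 and at 12.32, 11.26 and 12.50 in animals 2, 3 and 4, and at 8.81 against 13.43, 12.96 and 12.25 in endometrial cells. In blood, animal 1 was the highest of the 4 for 10 of 10 monocyte and macrophage markers tested and the lowest for 17 of 18 markers of T and NK cells and 6 of 7 of B cells. In endometrium it was the highest for 8 of the 10, and the lowest for 15 of the 18 and 4 of the 7. The cells labelled CD14+ of animals 2, 3 and 4 thus went against their label in these markers, although the labels report a high purity of the sorted cells by flow cytometry. The monocyte and macrophage markers had a median log2 ratio of endometrium over blood of 1.36, with -0.06, 0.10, 1.97 and 1.91 in animals 1 to 4. Their summed level, as log2, was 11.60 to 16.58 in blood and 13.45 to 16.61 in endometrium, and 0 of 10 were called. LYZ was not well above background in either tissue. The ratios of the members and the heavy chain genes are therefore given with the value of animal 1 alone, which has no test, and with the mean without animal 1. Since these are bulk samples, fewer cells of a type and less RNA per cell cannot be told apart.

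**Figure D1:**
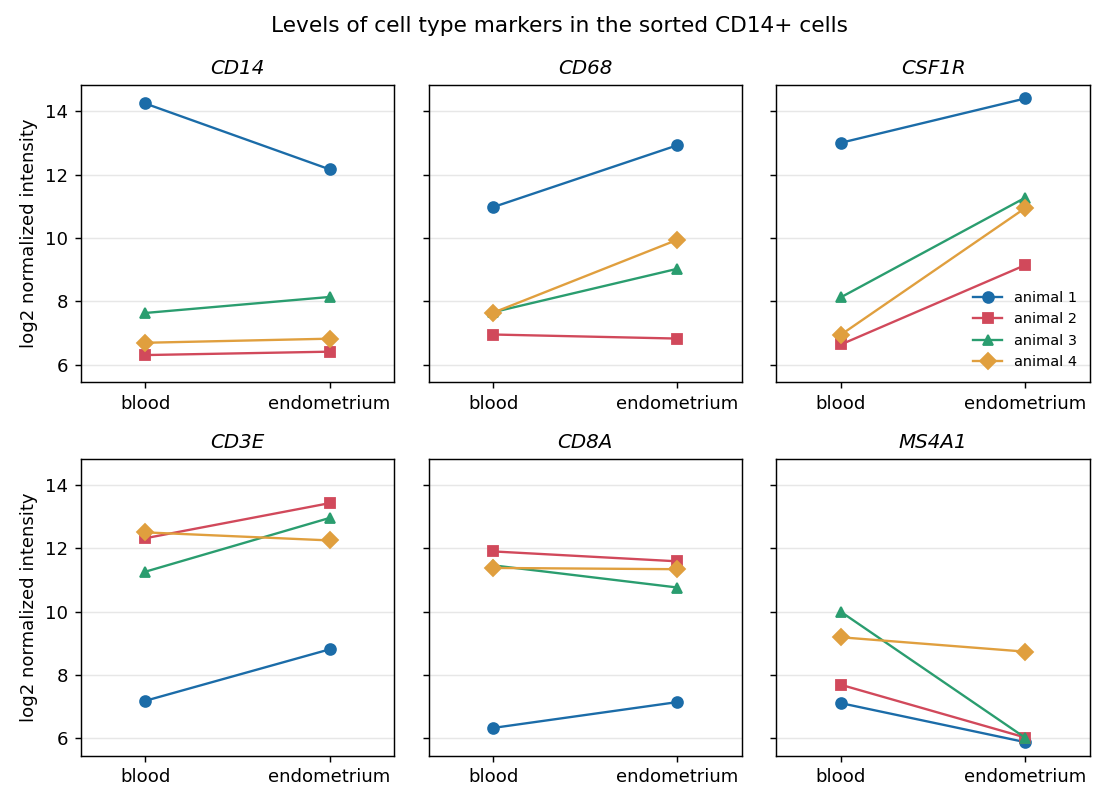
Levels (log2 normalized intensity, y axis) of 6 cell type markers in blood and endometrial cells labelled CD14+, with each animal's tissues joined by a line and each point the mean of 2 arrays. CD14 was at 14.24 and 12.17 in animal 1 and at or below 8.14 in both tissues of the other animals, while CD3E was at 7.19 and 8.81 in animal 1 and at or above 11.26 in the others.

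Other marker lists are given by their sums in each tissue. The summed level of epithelial markers, as log2, was 10.69 to 12.08 in blood and 13.75 to 16.88 in endometrium, and 0 of 15 passed the test, whose threshold is given below. The sum of trophoblast markers was 11.27 to 12.29 in blood and 13.97 to 15.63 in endometrium, where 5 of 17 were called higher (0.0661% of all probes tested were), while PAG2 and CDX2 were not well above background in either tissue. Stromal and endothelial markers summed to 10.23 to 11.16 in blood and 10.47 to 16.19 in endometrium. Their median log2 ratio was 3.95, -0.01, 0.90 and 0.09 in animals 1 to 4. Animal 1 was the highest of the 4 for 12 of 15 of these markers in endometrium and for 10 of 15 in blood. B cell markers summed to 12.71 to 15.23 in blood and 11.69 to 14.02 in endometrium, with a median log2 ratio of -1.60 and of -3.66 in animal 3. T and NK cell markers summed to 12.07 to 16.14 in blood and 15.30 to 17.53 in endometrium. Granulocyte markers summed to 9.71 to 13.01 and 9.54 to 11.14, with CAMP, CATHL1 and MMP8 not well above background in either tissue. Immediate early and heat shock genes had a median log2 ratio of 1.42. The part of these cell types in the values of the class I genes was not tested.

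The comparison asked which genes differ between endometrial and blood cells of the same animal. The endometrial level minus the blood level of an animal, as log2, is its log2 ratio, and limma tested the mean ratio of 4 animals against 0. Each SE given with a mean ratio is limma's moderated SE. It draws on the spread of all probes tested as well as on that of the 4 animals. A probe was called if its fold change exceeded 2 and its adjusted p (Benjamini-Hochberg, over 16653 probes tested) did not exceed 0.05. At this threshold 0 of the 7 members were called, where 0.0661% of all probes tested were called, all of them higher in endometrium. All 7 members were well above background in 8 of 8 channels of each tissue, and no spot was saturated. At an unadjusted p of at most 0.05, 4 of the 7 members were lower in endometrium, where 8.64% of all probes were, and with a fold change over 2 as well this held for TAP1 alone, where 5.11% of all probes did. In the other direction 0 of 7 members passed the unadjusted p (6.58% of all probes), or that p with the fold change (5.27%). The count of 4 members depended on the values and the test. With the authors' log2 values the unadjusted limma p was 0.109 for B2M, 0.0169 for TAP1, 0.0671 for TAP2 and 0.133 for TAPBP. With the methods' analysis of variance the unadjusted p was 0.0195, 0.0616, 0.024 and 0.0792 for these genes. B2M, TAP1, TAP2 and TAPBP were lower in endometrium in 4 of 4 animals, which is 4 of 7 members against 14.7% of all probes, and 0 of 7 were higher in 4 of 4 (10.2% of all probes). For B2M, TAP1 and TAP2 the 4 blood values did not overlap the 4 endometrial values, which is 3 of 7 members against 3.03% of all probes, and 0 of 7 had all endometrial values above the blood values (2.41%). The median log2 ratio was -0.81 for the members and -0.02 for all probes tested. By animal the members' median was -1.40, -0.41, -1.03 and -0.21 in animals 1 to 4.

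TAP1, the transporter subunit that binds and moves peptides together with TAP2, had the lowest ratio of the members. Its level was 11.98, 12.13, 12.73 and 11.91 in blood cells of animals 1 to 4, and 9.34, 10.65, 9.76 and 11.70 in endometrial cells. Every blood value was above every endometrial value, and animal 4 had the highest endometrial level by more than 1 log2 unit. The log2 ratios were -2.64, -1.48, -2.97 and -0.21, with an SD of 1.25. Their mean was -1.83 ± 0.51 (limma's moderated SE, n = 4 animals), or a level 3.55-fold higher in blood. The 95% interval ran from -3.10 to -0.56, and the adjusted p was 0.262 with limma. TAP1 ranked 158 from the lowest ratio among the 16653 probes. The 2 arrays of an animal differed by 0.02 to 0.14, far less than the animals did from each other. Without animal 1 the mean was -1.55 (limma adjusted p = 0.419), and without animal 4 it was -2.36 (limma adjusted p = 0.191).

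TAP2, the partner of TAP1 in the transporter, was the steadiest gene of the group in blood. Its blood levels were 13.21, 13.11, 13.08 and 13.26, and its endometrial levels 11.81, 12.63, 11.69 and 12.55. The tissues did not overlap, and the endometrial levels of animals 1 and 3 lay below those of animals 2 and 4. The log2 ratio was -1.40, -0.48, -1.39 and -0.72, with a mean of -0.998 ± 0.263 (SE, n = 4 animals) and a limma adjusted p of 0.262. Without animal 1 the mean was -0.86.

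B2M, the light chain that every classical class I molecule needs to reach the cell surface, was at 14.75, 15.03, 14.91 and 14.84 in blood cells. In endometrial cells it was at 13.74, 14.07, 13.87 and 14.55. The ranges did not overlap, and animal 4 again had the smallest difference between its tissues. The ratio was -1.01, -0.96 and -1.03 in animals 1, 2 and 3 and -0.29 in animal 4, with a mean of -0.82 ± 0.24 (SE, n = 4 animals) on the log2 scale and a limma adjusted p of 0.263. The mean was -0.76 without animal 1.

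TAPBP, the tapasin of the loading complex, was lower in endometrium in each animal, but its tissues overlapped. Blood levels were 12.42, 13.01, 12.07 and 12.36, and endometrial levels 11.34, 12.60, 10.51 and 12.15. The order of the animals was the same in both tissues at either end, with animal 2 highest and animal 3 lowest. The log2 ratios were -1.08, -0.41, -1.56 and -0.21 in animals 1 to 4. Their mean was -0.81 ± 0.30 (SE), and the limma adjusted p was 0.309. The mean was -0.72 without animal 1. In animal 4 the ratio was -0.42 on technical replicate 1 and 0.004 on technical replicate 2, so its sign rested on 1 array. The ratios of these replicates were -1.30 and -0.86 in animal 1, and -0.60 and -0.21 in animal 2. Dyes were swapped between the arrays of these animals. In animal 3, whose dyes were not swapped, the ratios were -1.58 and -1.53. The part of the dye was not tested for this probe.

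**Figure D2:**
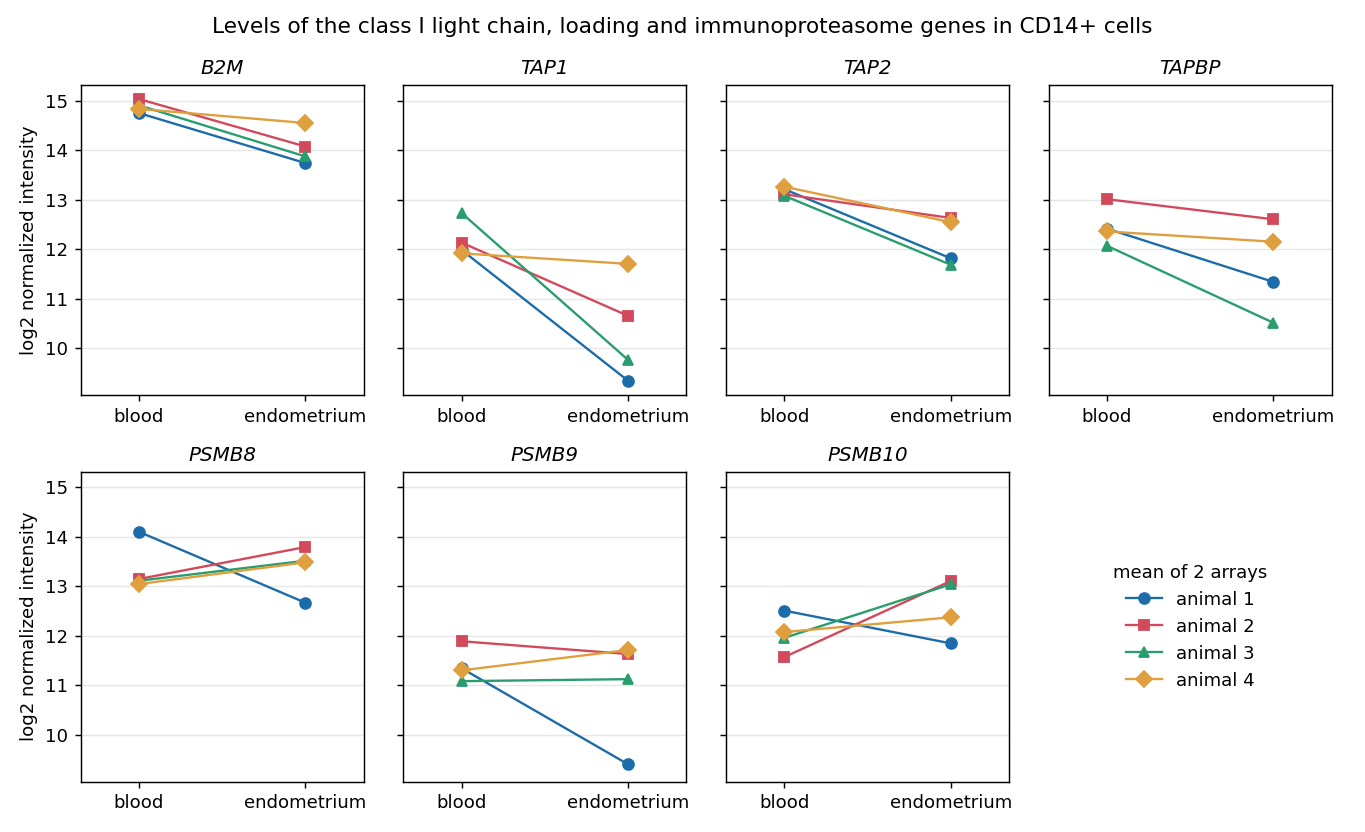
Levels (log2 normalized intensity, y axis) of the 7 genes in blood and endometrial cells labelled CD14+, with each animal's tissues joined by a line and each point the mean of 2 arrays. TAP1, TAP2 and B2M were lower in endometrium in 4 of 4 animals with no overlap, TAPBP in 4 of 4 with overlap, and the lines of the immunoproteasome genes slope downward in animal 1 and mostly not in the others.

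The immunoproteasome subunits did not share this pattern across animals. PSMB8, which carries the chymotrypsin-like activity of the immunoproteasome, was at 14.10 in blood cells of animal 1 and at 13.15, 13.12 and 13.05 in animals 2, 3 and 4. In endometrial cells it was at 12.67 in animal 1 and at 13.80, 13.52 and 13.49 in the others. Animal 1 was thus the highest in blood and the lowest in endometrium. Its log2 ratio was -1.43, against 0.65, 0.41 and 0.44 in animals 2, 3 and 4, so that the mean of 0.01 ± 0.41 (SE, n = 4 animals) stands between opposite values. The limma adjusted p was 0.995 and the 95% interval -1.02 to 1.05. Without animal 1 the mean was 0.50 (limma adjusted p = 0.486).

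PSMB9, the subunit encoded next to TAP1 and transcribed from a promoter shared with it in human and mouse, was at 11.35, 11.89, 11.09 and 11.30 in blood cells. Endometrial cells had 9.40 in animal 1 and 11.63, 11.13 and 11.72 in the others. Only the endometrial level of animal 1 lay outside the range of the blood levels by more than 1 log2 unit. The ratios were -1.94, -0.26, 0.04 and 0.41, with a mean of -0.44 ± 0.43 (SE, n = 4 animals), a 95% interval of -1.53 to 0.65 and a limma adjusted p of 0.662. The mean was 0.06 without animal 1 and -0.72 without animal 4.

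PSMB10, the third of the inducible subunits, has its gene outside the MHC. Blood levels were 12.51, 11.57, 11.96 and 12.08, and endometrial levels 11.85, 13.11, 13.04 and 12.38. Animals 2, 3 and 4 were higher in endometrium and animal 1 was lower. The log2 ratios were -0.66, 1.54, 1.08 and 0.30, with a mean of 0.56 ± 0.41 (SE, n = 4 animals), a 95% interval of -0.46 to 1.59 and a limma adjusted p of 0.540. The 2 arrays of an animal differed by up to 0.66 for this probe, the widest gap among the members. The ratios of technical replicates 1 and 2 were -0.97 and -0.36 in animal 1, 1.24 and 1.84 in animal 2, and -0.03 and 0.63 in animal 4. Dyes were swapped between the arrays of these animals. In animal 3, whose dyes were not swapped, both arrays gave 1.08. The part of the dye was not tested for this probe. Without animal 1 the mean was 0.97 (limma adjusted p = 0.419), and without animal 2 it was 0.24.

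In animal 1, the only animal whose cells were high in CD14 RNA, 7 of 7 members were lower in endometrium, where 57.4% of all probes tested were. The count was 5 of 7 in animal 2, where 52.6% of all probes were lower, 4 of 7 in animal 3 against 51.1%, and 4 of 7 in animal 4 against 53.8%. The ratios of animal 1 ran from -2.64 for TAP1 to -0.66 for PSMB10. With 1 animal high in CD14 RNA, whether it differed from the other animals cannot be tested. Endometrial cells of animal 1 were also the highest of the 4 for 12 of 15 stromal and endothelial markers. The median log2 ratio of epithelial markers was 2.24, 1.36, 3.80 and 1.41 in animals 1 to 4. For T and NK cell markers it was 1.08, 1.15, 0.23 and -0.06. The part of those cell types in its ratios was not tested.

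**Figure D3:**
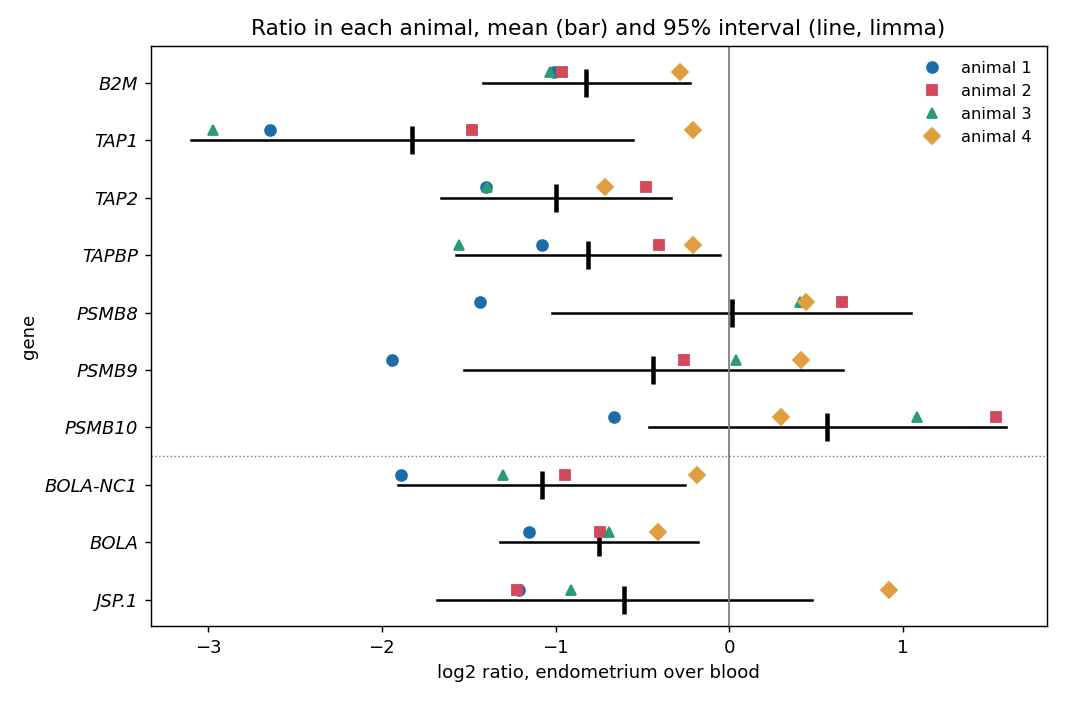
Log2 ratio of endometrium over blood (x axis) for the 7 genes and, under the dotted line, the 3 heavy chain genes, with a symbol for each animal, a bar for the mean and a line for the limma 95% interval. With the values used here, the intervals of B2M, TAP1, TAP2, TAPBP, BOLA-NC1 and BOLA lay below 0 before adjustment, and those of the other 4 genes held 0.

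TAP1 was set against its neighbours on the same chromosome in 3 pairs, as the difference of their log2 ratios in an animal. Since TAP1 had the lowest mean ratio of the members in these same data, each mean difference had to be below 0. The permutation p values below are therefore no test of whether TAP1 was lower than its neighbours, and nothing is concluded from them. Pairs without TAP1 were not compared. TAP1 minus PSMB9 was -0.70, -1.22, -3.01 and -0.62 in animals 1 to 4, so the ratio of TAP1 was the lower in 4 of 4 animals. The mean difference was -1.39 ± 1.11 (SD, n = 4 animals), with a 2-sided exact sign-flip permutation p of 0.125, the smallest that 4 animals allow, and 0.188 after Benjamini-Hochberg adjustment over the 3 pairs. TAP1 minus PSMB8 was also below 0 in 4 of 4 animals, with a mean of -1.84 ± 1.19 (SD) and the same exact p of 0.125. TAP1 minus TAP2 was below 0 in 3 of 4 animals, with 0.51 in animal 4, a mean of -0.83 ± 0.92 (SD) and an exact permutation p of 0.250.

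Over the 8 means of an animal and a tissue, the level of TAP1 correlated with B2M at r = 0.967, with TAP2 at 0.913, with TAPBP at 0.702 and with PSMB9 at 0.626. The correlation was 0.171 for PSMB8 and -0.388 for PSMB10. These 8 points share arrays and animals in pairs, so the values only describe the order of likeness. Among 10571 other probes tested with an SD of at least 0.5 over the 8 means, 5 were most like the mean standardized profile of the 6 members other than B2M. They were BTG1, an antiproliferative gene, with r = 0.955, LOC614161, described as similar to ARF6, with 0.939, CLDND1 with 0.935, LOC509155 with 0.929 and the phosphodiesterase PDE3B with 0.925. Their own log2 ratios were -0.69, -0.47, -0.67, -0.68 and -0.53, and none was called. Without animal 1 they were -0.31, -0.044, -0.37, -0.31 and 0.078. As the highest of 10571 values over 8 points, the r values of these probes are high by selection and test no link to the members. With TAP1 itself, r ran from 0.62 for PDE3B to 0.89 for LOC509155.

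The class I heavy chains bind the peptide itself. The heavy chain family is highly polymorphic and its genes are near-identical in parts, so their probes may also bind related transcripts and their values are uncertain to that extent. BOLA was at 15.17, 15.52, 14.86 and 15.65 in blood cells and at 14.01, 14.78, 14.17 and 15.24 in endometrial cells of animals 1 to 4. The ranges overlapped, although each animal was lower in endometrium. Its mean log2 ratio was -0.75 ± 0.23 (SE, n = 4 animals, limma adjusted p = 0.271), with -1.15 in animal 1 and a mean of -0.62 without it.

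BOLA-NC1, a non-classical class I gene, was at 11.94, 11.24, 9.40 and 11.84 in blood cells and at 10.05, 10.29, 8.10 and 11.66 in endometrial cells. Animal 3 was the lowest in both tissues. The ratio was below 0 in 4 of 4 animals, with a mean of -1.08 ± 0.33 (SE, n = 4 animals, limma adjusted p = 0.272), -1.89 in animal 1 and a mean of -0.81 without it. JSP.1 was at 12.08, 12.83, 10.96 and 11.14 in blood cells and at 10.87, 11.61, 10.05 and 12.06 in endometrial cells. It was lower in endometrium in animals 1, 2 and 3 and higher in animal 4, at a log2 ratio of 0.92. Its mean was -0.61 ± 0.43 (SE, n = 4 animals, limma adjusted p = 0.531), with -1.21 in animal 1. The mean was -0.40 without animal 1 or without animal 2, and -1.11 without animal 4.

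The other genes of the route were taken as lists, and 0 of their 82 genes tested were called. The remaining loading factors and chaperones of the endoplasmic reticulum had 9 genes tested, with a median log2 ratio of 0.10. CANX (calnexin), which holds new heavy chains, had a ratio of -0.91 and was below 0 in 4 of 4 animals, with no overlap between the tissues. CALR (calreticulin), which joins the loading complex, had 0.43 and was above 0 in 4 of 4, again with no overlap. ERAP1, which trims peptides in the endoplasmic reticulum, had -0.52, and TAPBPL, a relative of tapasin, had 0.88. The limma adjusted p values of these 4 genes lay between 0.342 and 0.443. Of the 9 genes in the list, 3 were lower in 4 of 4 animals (14.7% of all probes tested) and 2 were higher (10.2%). The tissues did not overlap for 1 gene with blood higher (3.03% of all probes) and for 2 with endometrium higher (2.41%).

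The 8 constitutive catalytic subunits, proteasome activators and assembly factors tested had a median log2 ratio of 0.22. PSMB5, which PSMB8 replaces, had 0.43, PSMB6, which PSMB9 replaces, had -0.17, and PSMB7, which PSMB10 replaces, had 0.35. PSME2, a subunit of the interferon-inducible activator, had 0.56, and no limma adjusted p of these 4 genes was below 0.477. The 4 cytosolic peptidases tested had a median of 0.40.

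**Figure D4:**
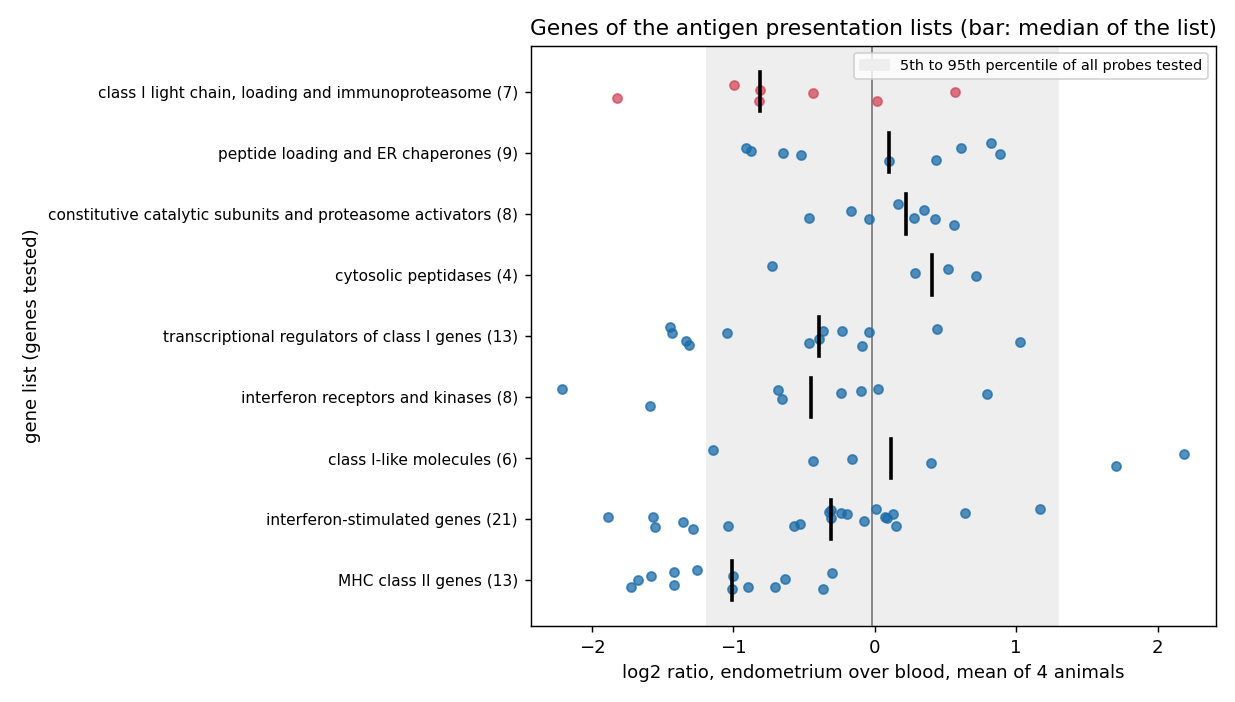
Mean log2 ratio of endometrium over blood (x axis) of each gene tested in the class I group (red) and in 8 other antigen presentation and interferon lists (blue), with the number of genes tested in brackets and a bar for each median. The class I group had a median of -0.81, the class II list -1.01 and the remaining loading genes 0.10, on a grey band that spans the 5th to 95th percentile of all probes tested.

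Regulators of class I genes had 13 genes tested, with a median log2 ratio of -0.39. It was -0.23, -0.24, -1.66 and -0.27 in animals 1 to 4. Of the 13 genes, 4 were lower in 4 of 4 animals (14.7% of all probes tested) and 2 were higher (10.2%). The tissues did not overlap for 2 genes with blood higher (3.03% of all probes) and for 1 with endometrium higher (2.41%). IRF1, the interferon-induced factor that drives TAP1 and PSMB9, had ratios of -2.53, -0.53, -1.66 and -0.55 in animals 1 to 4 and tissues that did not overlap. Its mean was -1.32 ± 0.41 (SE, n = 4 animals, limma adjusted p = 0.273). RELA, a subunit of NF-kB, had -1.42, -1.18, -2.26 and -0.49 and a mean of -1.34 (limma adjusted p = 0.262), also without overlap. IRF9 and STAT2, parts of the factor that answers type I interferon, had means of -1.45 and -1.05, and were below 0 in 4 of 4 animals. Both rested in part on animal 3, without which they were -0.71 and -0.69. NFYB, a subunit of the CCAAT-binding factor, was above 0 in 4 of 4 animals with a mean of 1.03, or 0.66 without animal 3. Its probe carries this symbol on the array, while the RefSeq genes name it LOC512881.

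The interferon receptors and kinases had 8 genes tested, with a median of -0.45. IFNAR2, a chain of the type I interferon receptor, had a mean log2 ratio of -2.21 (limma adjusted p = 0.273), the lowest of the genes named here, with -2.30 in animal 1, -4.35 in animal 3 and -0.04 in animal 4. IFNAR1, the other chain, had -1.59 (limma adjusted p = 0.262), with -1.28 in animal 1. Of the 8 genes 3, both chains among them, were below 0 in 4 of 4 animals (14.7% of all probes). In the other direction 0 were above 0 in 4 of 4 (10.2%). Of the 21 interferon-stimulated genes tested, with a median of -0.31, IFIH1, USP18, WARS and IDO1 were below 0 in 4 of 4 animals with means of -1.55, -1.89, -1.28 and -1.36 (limma adjusted p from 0.262 to 0.305). These 4 of 21 genes stand against 14.7% of all probes lower in 4 of 4 animals, and 1 gene of the list was higher in 4 of 4 (10.2% of all probes). Without animal 3 the mean of USP18 was -1.22 and that of WARS -0.76, and without animal 2 that of IDO1 was -0.79.

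**Figure D5:**
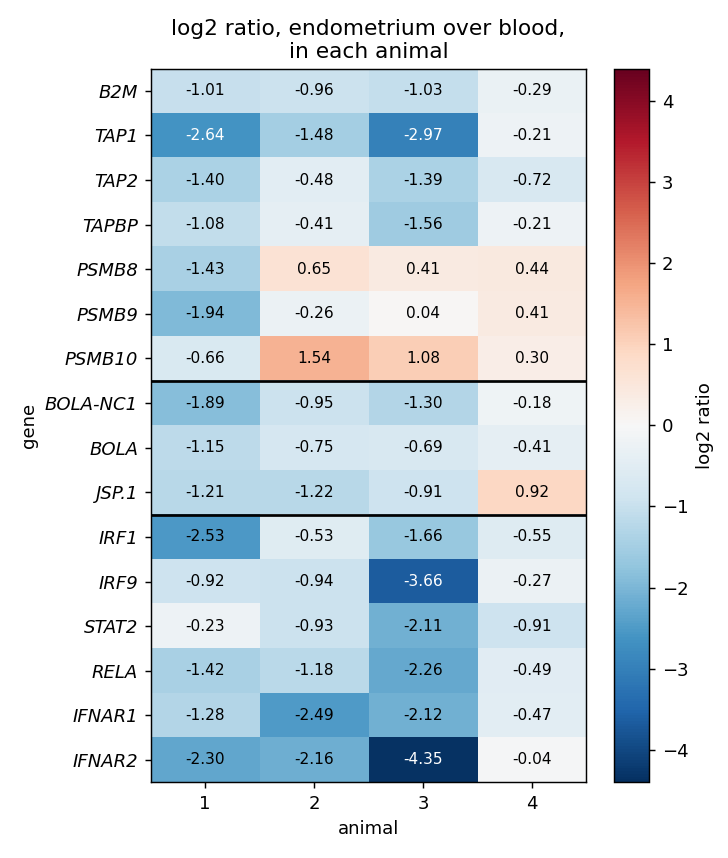
Log2 ratio of endometrium over blood in each of the 4 animals (columns) for the 7 genes, the 3 heavy chain genes and 6 regulators (rows), in blue where lower in endometrium and red where higher. In animal 1 every row was below 0, in animals 2 to 4 the subunits PSMB8 and PSMB10 were above 0, and in animal 4 the values of the transporter, light chain and loading genes lay between -0.72 and -0.21.

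The class I-like molecules, relatives of the heavy chain that do not serve this route, had 6 genes tested. Of these, 2 were above 0 in 4 of 4 animals (10.2% of all probes tested) and 1 was below 0 in 4 of 4 (14.7%). FCGRT, the heavy chain of the neonatal Fc receptor, which also pairs with B2M, had a mean log2 ratio of 1.71 and was above 0 in 4 of 4 animals (limma adjusted p = 0.262). AZGP1, a secreted relative, had 2.19 and was above 0 in 4 of 4, but only 3 of its 8 blood channels were well above background (limma adjusted p = 0.263). With the authors' own log2 values its ratio was 5.10 and it was called (limma adjusted p = 0.00855), and with the values used here it was 1.43 without animal 3. MIC1, a stress-induced relative, had -1.15 and was below 0 in 4 of 4 (limma adjusted p = 0.262). FCGRT thus had a positive value where its light chain B2M had a negative one, and neither was called.

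The MHC class II list, which holds BOLA-DOB and BOLA-DMB from either side of TAP2, PSMB8, TAP1 and PSMB9, had 13 genes tested. The median log2 ratio was -1.01, and the medians by animal were -0.17, -1.99, -2.43 and 0.05. Of the 13 genes, 3 were lower in 4 of 4 animals (14.7% of all probes tested) and 0 were higher (10.2%). The tissues did not overlap for 1 gene, with blood higher (3.03% of all probes). BOLA-DOB, the neighbour on the side of TAP2, had a mean of -1.73 and was below 0 in 4 of 4 animals without overlap (limma adjusted p = 0.278), with -1.14 without animal 3. BOLA-DQB had -1.67 and was below 0 in 4 of 4 (limma adjusted p = 0.342). In animal 1 the class I members were at a median of -1.40 while the class II genes were at -0.17, and in animal 2 the order was the reverse, at -0.41 and -1.99. The median ratio of the B cell markers, whose cells carry class II, was -1.23, -1.64, -3.66 and -0.45 in animals 1 to 4, and the part of B cells in these values was not tested.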

How the data were processed

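RNA of cells labelled CD14+ from endometrium and blood of 4 cows was measured on 8 Agilent arrays with 2 colours, as 16 samples. The authors deposited scanner files with the intensity of each spot and its background in each dye, from Feature Extraction (9.5 in the submitters' processing notes, 10.5.1.1 in the file headers), and a table of log2 values normalized by lowess and quantiles. Columns of the deposited table were matched to the files by rank of the processed intensity. For 100% of probes, within 0.001 on the log2 scale, a column held the sample's dye in the file of its animal's second array, not its own (at most 0.0186%), so files were read exchanged.

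With limma 3.58.1 in R 4.3.3, median signals were corrected by normexp (offset 50) and normalized by loess and quantiles. Control and outlier spots were dropped, and a probe's value is the mean of its spots. The 7 member genes were matched to the reference table by accession (5) or gene identifier (2). Probes well above background in at least 4 of 8 channels of a tissue were tested with lmFit and eBayes on the log2 ratios of 4 animals, with Benjamini-Hochberg adjustment. The labels pair the tissues by animal, and the 2 tissues of an animal deviated together from the group means (r = 0.618, 0.364, 0.209 and 0.465). Between 65.2% and 82.9% of spots were well above background, with median intensities of 48 to 402.75 in a channel. The number of animals limits precision. Dyes were not swapped in animal 3, whose ratios are open to dye bias. Slides held 1 array of each animal.

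Named genes are the members, list genes called or with an absolute log2 ratio over 1 in 1 direction in 4 of 4 animals, at most 4 examples a list, the 5 most similar probes, and defining markers. The members and lists were chosen with earlier results of these data known. The fit was tested on simulated data. Alternatives changed background, normalization, values, filter, pairing, slide, test and animals. The result of 1 list gene is not reported here.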

Additional observations from a re-analysis of the deposited data

Results flagged for a closer look

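In 30 groups of 4 values (the blood levels, endometrial levels and ratios of the 7 members and the 3 heavy chain genes), 4 held a value far from the other 3 by Dixon's test, and chance alone gives about 1 in 20. The log2 ratio of B2M was -0.29 in animal 4, while the others lay between -1.03 and -0.96. The log2 ratio of PSMB8 was -1.43 in animal 1, against 0.41 to 0.65 in the others. The blood level of PSMB8 in animal 1 was 14.1 on the log2 scale, against 13.05 to 13.15. The log2 ratio of JSP.1 was 0.92 in animal 4, where the others lay between -1.22 and -0.91. Animal 1 was also the animal with high CD14 RNA, and the part of the cell types in these values was not tested.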

How the results depend on the processing

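TAP1 kept its direction under 18 alternatives (-2.36 to -1.45, adjusted p 0.0621 to 0.532 with limma and 0.556 with the methods' analysis of variance, or -1.87 and -1.78 within slides 1 and 2), as did TAP2, B2M, TAPBP and PSMB10 (0.24 to 0.97). Under files read as attached, the signs turned, with a member median of 0.30, and 0.31 for B2M, 0.34 for TAP1, 0.30 for TAP2, 0.034 for TAPBP, 0.46 for PSMB9, -0.023 for PSMB10, 0.43 for BOLA-NC1, 0.40 for BOLA and 0.15 for JSP.1, while PSMB8 stayed above 0. This reading was not run for other genes. With 1 animal left out, PSMB8 ranged from -0.20 to 0.50, PSMB9 from -0.72 to 0.065 and PDE3B from -0.92 to 0.078, with both upper values without animal 1. Without the pairing block TAP1 was unchanged at -1.83 (limma adjusted p = 0.370) and 4 probes in all were called. The unadjusted limma p called 1 member (TAP1) and 14 of 82 list genes (10.4% of all probes), and the methods' analysis of variance before adjustment 5 (4.13% of all probes; RELA, IFNAR1, FCGRT, MIC1 and IFIH1). Of list genes 1 was called with the processed signal and with the authors' values (AZGP1), and 1 with arrays under dye and slide terms (FCGRT). Over all probes, 11 were called, 224 with the processed signal or the authors' values (20 lower, 204 higher, median ratio -0.14), 278 with arrays under dye and slide terms, 50 without background correction, 44 when all 8 channels had to be above background, 20 and 5 within slides 2 and 1, 5 with loess alone or no filter, 9 with a filter on either spot chosen after seeing the data, and 0 without any 1 animal. The causes were not tested.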
